A study of Mus musculus with 12 samples.

Results

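The genes described here encode the mitochondrial solute carriers of family SLC25, the transporters that move metabolites across the inner mitochondrial membrane. They were taken by symbol as every protein-coding gene whose name begins with Slc25a and a number. This gave 42 genes among the 17599 genes in either table, 41 in the table for inguinal white fat (iWAT) and 42 in that for brown fat (BAT). In all, 16738 genes were listed for white fat and 15363 for brown fat. No measured value entered the choice.

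The series profiled inguinal white fat, the subcutaneous depot of the groin, by RNA sequencing. All 12 labelled libraries came from C57BL/6 mice fed a high-fat diet and housed at room temperature, in 4 groups of 3: wild-type (WT) males, WT females, knockout (KO) males and KO females. The knockout removes NDUFS4, an accessory subunit of respiratory complex I, in adipocytes. The promoter that drives the deletion, the age of the mice and the number of animals behind a library were not given in the sources used here. Hence p-values reflect the spread among libraries, which may be partly technical. The values below are the authors' own contrast for each depot, named as the KO effect in females against the KO effect in males. This log2 interaction is read as the female effect minus the male effect, an order taken from the table's name. A value below 0 can come from a lower level in KO females, a higher level in KO males or a difference among the WT groups, and the effect within each sex was not analysed here. The labels describe white fat libraries, so the groups behind the brown fat table are not described. Neither depth nor values per library could be tied to the labels, and levels by group are therefore not given. In bulk fat, fewer cells of a type and less RNA per cell cannot be told apart.

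SLC25 proteins share a fold of paired helices repeated along the chain, and most act as exchangers that trade a matrix solute for a cytosolic one. Through them ADP and phosphate reach ATP synthase, acylcarnitines reach beta-oxidation, citrate leaves for fatty acid synthesis, and the malate-aspartate shuttle carries reducing power inward. Uncoupling protein 1, the heat-producing protein of brown fat, belongs to the same family but carries another symbol. Complex I, from which NDUFS4 is removed, reoxidises much of the NADH that the oxidation of these substrates yields.

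The targeted gene gives no check of the labels here. Ndufs4 (ENSMUSG00000021764.9) had an interaction of 0.89 ± 0.38 (standard error throughout) by the authors' deposited table for white fat, with an adjusted p by limma of 0.169, and -0.10 ± 0.14 in that for brown fat. A difference between sexes says nothing of how far the gene was lowered in either.

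Most SLC25 genes lay above 0 in white fat, while 1 of them passed the test, and it lay below 0. Of 41 genes, 27 were above 0 and 14 below in the authors' deposited table, against 57.3% above 0 among all protein-coding genes. The median interaction was 0.80 over the SLC25 genes, 0.13 over all genes and 0.15 over protein-coding genes. Values ranged from -1.72 for Slc25a45 to 3.43 for Slc25a34. At an adjusted p under 0.05 in limma, Slc25a45 alone was called, 1 of 41, where 4.75% of all genes were called in either direction 3.69% below 0 and 1.06% above 0. A single call in 41 is near the background. At an adjusted p under 0.10, 4 passed, of which 3 lay above 0 (Slc25a35, Slc25a17 and Slc25a39) and 1 below, where 12.1% of all genes passed, 4.67% above 0 and 7.44% below. Taken from the median of all genes, 25 of the 41 lay above, beside 50.9% of protein-coding genes. At an unadjusted p under 0.05, 18 of the 41 passed, 14 above 0 and 4 below, beside 24.5% of all genes in either direction, 11.9% above 0 and 12.6% below. The direction above 0 thus held 34.1% of the SLC25 genes and 13.0% of protein-coding genes at that unadjusted limit. These shares are descriptions of a family of genes measured in the same libraries, and the genes are not independent replicates.

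**Figure D1:**
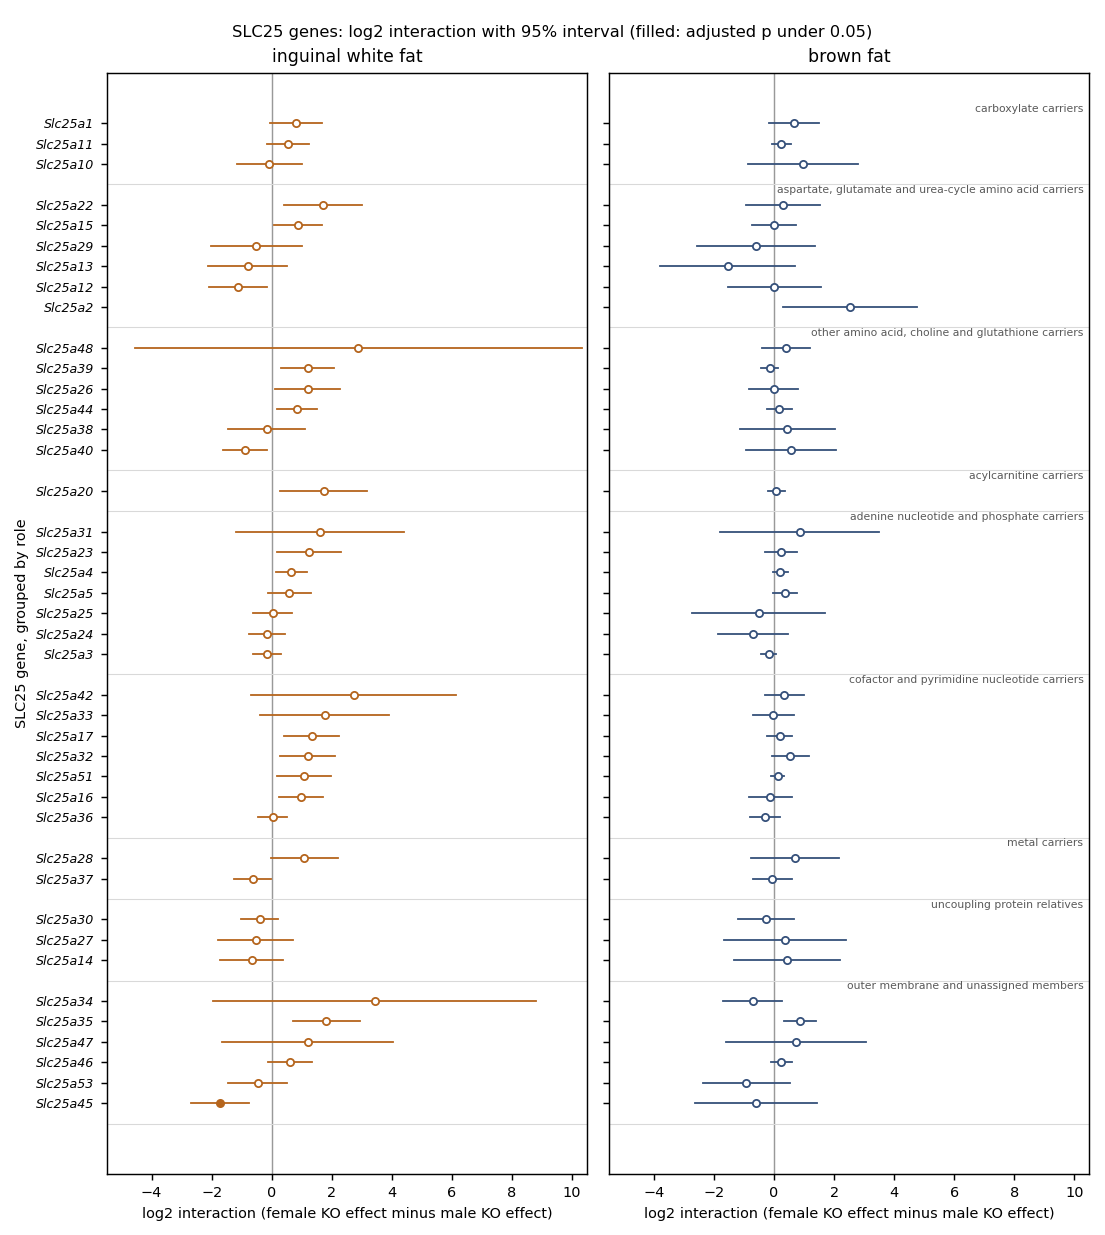
Each row is 1 SLC25 gene (41 of the 42 are drawn), grouped by the solute it carries, and each point is its log2 interaction in white fat (left) or brown fat (right) with a 95% interval as the line. The filled point marks the gene with an adjusted p under 0.05, Slc25a45 at -1.72 in white fat. White fat intervals are wide for Slc25a48, Slc25a34 and Slc25a42, and brown fat points other than Slc25a2 and Slc25a13 lie within 1 log2 unit of 0.

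**Figure D2:**
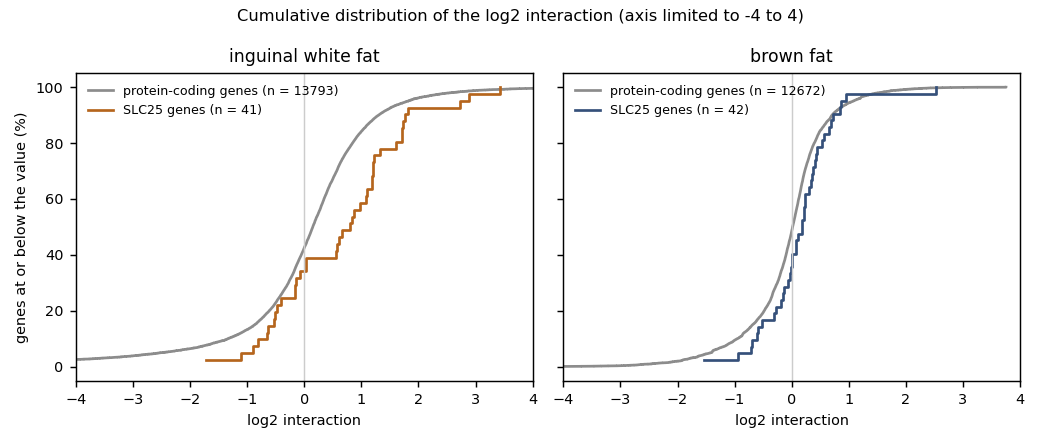
The curves give the share of genes (vertical axis, percent) at or below each log2 interaction (horizontal axis) for SLC25 genes and all protein-coding genes, in white fat (left) and brown fat (right), with the axis limited to -4 to 4. In white fat the SLC25 curve lies to the right, with a median of 0.80 against 0.15. In brown fat the medians are 0.18 and 0.02.

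Slc25a45 was the gene that passed. It has been linked to the entry of methylated amino acids into mitochondria, a step toward carnitine synthesis. The gene (ENSMUSG00000024818.16) lies on chromosome 19, 5927836 to 5935906, plus strand, GRCm39. Its interaction was -1.72 ± 0.45 in the authors' deposited table for white fat, with a 95% interval of -2.70 to -0.74 and an adjusted p by limma of 0.0478. Averaged over the white fat libraries, its log2 expression was 3.36. In brown fat the authors' deposited table gave -0.60 ± 0.99 (adjusted p = 0.948) at a mean log2 expression of 1.63. The interval there, -2.62 to 1.42, contains both 0 and the white fat value. T and B cell markers also lay far below 0 in the same white fat table, as given further on, and their part in the Slc25a45 value was not tested.

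The sequence before the start of Slc25a45 is shown beside that of Slc25a17, the gene with the smallest p above 0 among those with a RefSeq promoter window. Both are the part of the 250 bases before the RefSeq start that no exon of GENCODE M21 covers, 5′ to 3′ on the strand of the gene, build GRCm38.p6. Capitals mark matches to any of 6 short motifs that were searched, which are listed with their background at the end of this section. The first lies at chr19:5877572-5877807, plus strand, and the second at chr15:81360813-81361015, minus strand.
Slc25a45: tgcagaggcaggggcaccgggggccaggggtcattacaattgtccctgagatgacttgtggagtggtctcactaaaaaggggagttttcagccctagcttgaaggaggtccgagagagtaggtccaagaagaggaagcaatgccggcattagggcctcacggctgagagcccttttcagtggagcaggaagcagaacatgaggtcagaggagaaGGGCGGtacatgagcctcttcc
Slc25a17: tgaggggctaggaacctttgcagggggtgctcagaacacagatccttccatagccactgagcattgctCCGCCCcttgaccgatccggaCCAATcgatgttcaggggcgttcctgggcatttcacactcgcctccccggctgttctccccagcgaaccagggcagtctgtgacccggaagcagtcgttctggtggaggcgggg

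The genes listed as carriers of cofactors and pyrimidine nucleotides lay on one side of 0 in white fat. The lowest, Slc25a36 at 0.03 ± 0.23, was under the median of all genes, 0.13. All 8 measured genes of this list were above 0 in white fat, with a median of 1.26, and 5 had an unadjusted p under 0.05, all above 0. Beside this, 57.3% of protein-coding genes were above 0, and 24.5% of all genes had such a p, 11.9% above 0. At the adjusted p, 0 of the 8 passed in limma. Slc25a17, which carries nucleotides and coenzyme A into peroxisomes and not mitochondria, was at 1.33 ± 0.42 (adjusted p = 0.0787) by the authors' deposited table. Slc25a32, the carrier of folate and flavin, was at 1.19 ± 0.42 (adjusted p = 0.109) and Slc25a16, linked to coenzyme A, at 0.97 ± 0.34 (adjusted p = 0.101) by the authors' deposited table. Slc25a51, the NAD carrier, was at 1.09 ± 0.42 (adjusted p = 0.130) by the authors' deposited table, with the third highest mean log2 expression of the family, 8.38. These levels count reads and are not per length, so they do not rank messages between genes. Slc25a42, a coenzyme A carrier, had the largest value of the list, 2.72, and a standard error of 1.59 in the authors' deposited table (adjusted p = 0.305).

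None of the acylcarnitine and carboxylate carriers passed the adjusted p in white fat, and their intervals overlapped. Slc25a20, which brings acylcarnitines to beta-oxidation, was at 1.73 ± 0.67 (95% interval 0.28 to 3.17, adjusted p = 0.134) by the authors' deposited table for white fat. Slc25a1, the citrate carrier that supplies carbon for fatty acid synthesis, was at 0.80 ± 0.40 (adjusted p = 0.236) by the authors' deposited table. Slc25a11, the 2-oxoglutarate carrier of the malate-aspartate shuttle, was at 0.55 ± 0.32 (adjusted p = 0.310) by the authors' deposited table. Slc25a10, which exchanges dicarboxylates for phosphate, was at -0.08 ± 0.51 (adjusted p = 0.941) by the authors' deposited table, an interval of -1.17 to 1.02. Of the 3 carboxylate carriers, 2 were above 0 and 0 had an unadjusted p under 0.05, so at this precision no difference was detectable for them. Beside this, 57.3% of protein-coding genes were above 0 and 24.5% of all genes had such a p.

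None of the genes listed as amino acid carriers passed the adjusted p in white fat, and values lay on both sides of 0. Slc25a45, described above, was grouped with the outer membrane and unassigned members. The mitochondrial glutamate carrier Slc25a22 was at 1.71 ± 0.61 (adjusted p = 0.108) by the authors' deposited table. Both aspartate-glutamate exchangers, the other transport step of the malate-aspartate shuttle, were below 0. Slc25a12 was at -1.12 ± 0.45 (adjusted p = 0.148) and Slc25a13 at -0.81 ± 0.61 (adjusted p = 0.432) by the authors' deposited table. The ornithine carrier Slc25a15 was at 0.87 ± 0.37 (adjusted p = 0.169) and the basic amino acid carrier Slc25a29 at -0.51 ± 0.71 (adjusted p = 0.685) by the authors' deposited table. Of these 5 genes 2 were above 0 and 3 below, with a median of -0.51, beside 57.3% of protein-coding genes above 0. Slc25a44 imports branched-chain amino acids, which brown fat burns. It was at 0.84 ± 0.31 (adjusted p = 0.123) by the authors' deposited table. Slc25a26, the carrier of S-adenosylmethionine, was at 1.19 ± 0.51 (adjusted p = 0.169) by the authors' deposited table. The glycine carrier Slc25a38, needed for heme synthesis, was at -0.17 ± 0.60 (adjusted p = 0.887) by the authors' deposited table.

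The carriers that serve ATP synthase included the most tightly measured genes. Slc25a4 and Slc25a5 exchange ADP for ATP. They were at 0.65 ± 0.24 (adjusted p = 0.120) and 0.58 ± 0.33 (adjusted p = 0.298) by the authors' deposited table, on the same side and of like size. Slc25a5 has a transcribed processed pseudogene in GENCODE M21, and how reads were shared with it was not given in the sources used here. Slc25a3, the phosphate carrier, had the highest mean log2 expression of the family, 9.27, and the smallest standard error. It was at -0.16 ± 0.21 (adjusted p = 0.666) by the authors' deposited table, so its 95% interval reached from -0.62 to 0.29. Slc25a31, the exchanger of the testis, was at the other end of the range with a mean log2 expression of -0.71 and an interaction of 1.60 ± 1.31 (adjusted p = 0.465) by the authors' deposited table. Of the calcium-sensitive ATP-Mg carriers, Slc25a23 was at 1.23 ± 0.50 (adjusted p = 0.150) by the authors' deposited table. Its relatives Slc25a24 and Slc25a25 lay near 0, at -0.16 ± 0.28 and 0.03 ± 0.30, in the authors' deposited table. Over the 7 genes of this list 5 were above 0, beside 57.3% of protein-coding genes, and the median was 0.58.

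Closely related carriers did not always lie on the same side. The glutathione carriers Slc25a39 and Slc25a40 were at 1.20 ± 0.41 (adjusted p = 0.0978) and -0.90 ± 0.34 (adjusted p = 0.126) by the authors' deposited table for white fat. Their 95% intervals, 0.31 to 2.09 and -1.64 to -0.17, did not overlap. The mitoferrins Slc25a28 and Slc25a37 bring iron to the matrix for heme and iron-sulfur clusters. They were at 1.08 ± 0.51 (adjusted p = 0.212) and -0.64 ± 0.28 (adjusted p = 0.187) by the authors' deposited table, with intervals of -0.02 to 2.19 and -1.24 to -0.03. The intervals did not overlap for these 2 of the 9 pairs set side by side. The pairs were picked by hand, and the share over other pairs of genes is not given. The count is therefore not read as a trait of related carriers. Pyrimidine nucleotide carriers Slc25a33 and Slc25a36 had 1.76 ± 1.0 and 0.03 ± 0.23 by the authors' deposited table, and there the intervals overlapped. A difference between 2 genes of the same libraries needs their covariance, so the differences within pairs were not tested. In brown fat Slc25a39 and Slc25a40 were at -0.15 ± 0.14 and 0.56 ± 0.73 by the authors' deposited table, with overlapping intervals.

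In white fat the intervals of the glutathione pair lay wholly on opposite sides of 0, so the sequences before their starts are shown. The windows were cut as above and lie at chr11:102407545-102407767, minus strand, for Slc25a39 and at chr5:8422717-8422837, plus strand, for Slc25a40. The window of Slc25a40 is shorter because exons of Dbf4, a cell-cycle kinase regulator on the other strand, cover the rest of its 250 bases.
Slc25a39: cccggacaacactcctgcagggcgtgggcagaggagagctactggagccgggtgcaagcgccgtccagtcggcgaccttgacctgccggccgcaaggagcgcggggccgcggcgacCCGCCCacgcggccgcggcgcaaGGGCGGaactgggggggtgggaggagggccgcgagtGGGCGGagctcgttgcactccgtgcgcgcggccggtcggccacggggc
Slc25a40: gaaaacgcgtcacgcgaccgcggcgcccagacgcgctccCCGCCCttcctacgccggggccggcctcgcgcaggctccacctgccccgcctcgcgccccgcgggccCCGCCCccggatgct

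The remaining members are carriers with no assigned solute, an outer membrane protein and relatives of the uncoupling proteins. Slc25a35, an orphan carrier, had the smallest p above 0, with 1.81 ± 0.52 (95% interval 0.69 to 2.93, adjusted p = 0.0595) by the authors' deposited table for white fat. It shares 1151 of 3677 exonic bases (31.3%) with Rangrf on the opposite strand in GENCODE M21. The strand setting of the counting was not given in the sources used here, so reads of the pair cannot be told apart. Rangrf had a mean log2 expression of -0.41 in the authors' deposited table for brown fat and was not listed under that symbol in the one for white fat. Slc25a46, an outer membrane protein of mitochondrial fission and fusion, was at 0.61 ± 0.35 (adjusted p = 0.296) by the authors' deposited table. All 3 uncoupling protein relatives were below 0, with a median of -0.54 and 0 of 3 at an unadjusted p under 0.05. In white fat 57.3% of protein-coding genes were above 0 and 24.5% of all genes had such a p. Slc25a14 was at -0.66 ± 0.49 (adjusted p = 0.418), Slc25a27 at -0.54 ± 0.58 (0.592) and Slc25a30 at -0.41 ± 0.29 (0.404) by the authors' deposited table. The orphan carrier Slc25a53 was at -0.47 ± 0.46 (adjusted p = 0.546) by the authors' deposited table. In all, 12 members share exonic bases with another annotated gene, 5 of them with a protein-coding gene.

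Several of the largest white fat values had large errors. Slc25a34, an orphan carrier, was at 3.43 ± 2.50 (adjusted p = 0.414) by the authors' deposited table, an interval from -1.96 to 8.82. Slc25a48, a choline carrier, was at 2.88 ± 3.46 (adjusted p = 0.634), an interval from -4.56 to 10.32, by the authors' deposited table. Protein-coding genes whose mean log2 expression lay within 0.5 of theirs had a median standard error of 1.23 for Slc25a34 and 0.92 for Slc25a48. For Slc25a42 and Slc25a33 it was 0.60 and 0.56, against their own 1.59 and 1.0. The more abundant Slc25a20 likewise had 0.67, where the median of its neighbours was 0.27. Slc25a47, a carrier of the liver, was at 1.20 ± 1.33 (adjusted p = 0.604) by the authors' deposited table, close to its neighbours' 1.10. A standard error above that of like genes reflects a wider spread of the libraries about the fit, and which libraries carried it was not analysed here.

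**Figure D3:**
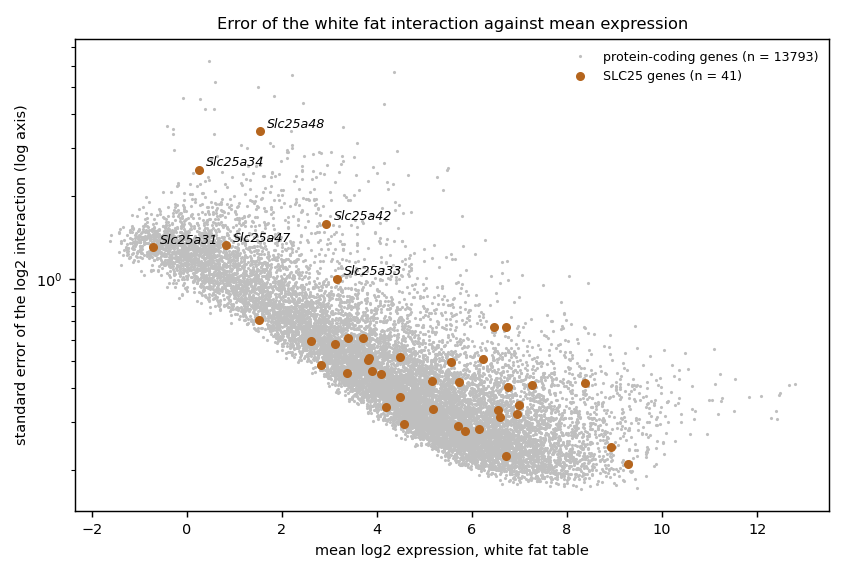
The vertical axis is the standard error of the white fat log2 interaction on a log scale, and the horizontal axis is mean log2 expression. Grey points are 13793 protein-coding genes and coloured points the 41 SLC25 genes. Slc25a48, Slc25a34, Slc25a42 and Slc25a33 lie above the bulk of genes at their expression.

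In brown fat the family stayed close to 0 and no member was called. Of 42 genes, 26 were above 0 (61.9%, against 51.7% of protein-coding genes) by the authors' deposited table, with a median of 0.18 against 0.01 over all genes. At an adjusted p under 0.05 in limma 0 of 42 passed, as did 0.013% of all genes, and 2 had an unadjusted p under 0.05, both above 0, beside 6.51% of all genes, 3.33% above 0 and 3.18% below. Among protein-coding genes the share above 0 at that limit was 3.58%. Taken from the median of all genes, 25 of 42 lay above, beside 50.5% of protein-coding genes. The first was Slc25a35 again, at 0.87 ± 0.27 (95% interval 0.33 to 1.41, adjusted p = 0.512) by the authors' deposited table for brown fat. The other was Slc25a2, an ornithine carrier near the floor of detection with a mean log2 expression of -0.09, at 2.52 ± 1.09 (adjusted p = 0.728) by the authors' deposited table. The abundant carriers were measured tightly. Slc25a51, with the highest mean log2 expression in this table (9.96), was at 0.12 ± 0.11 in the authors' deposited table, an interval of -0.11 to 0.34. Slc25a4 was at 0.21 ± 0.12 and Slc25a3 at -0.18 ± 0.12 in the authors' deposited table. For Slc25a20 the value was 0.07 ± 0.14 in the authors' deposited table. Slc25a5 was at 0.37 ± 0.19 (adjusted p = 0.784), Slc25a32 at 0.54 ± 0.30 (0.801) and Slc25a1 at 0.66 ± 0.40 (0.827) by the authors' deposited table. Slc25a11 was at 0.23 ± 0.15 (0.836) and Slc25a46 at 0.24 ± 0.17 (0.852) by the authors' deposited table, each a small value with a narrow interval. The orphan carriers Slc25a34 and Slc25a53 were at -0.70 ± 0.48 (0.852) and -0.93 ± 0.71 (0.878) by the authors' deposited table. Slc25a39 was at -0.15 ± 0.14, Slc25a28 at 0.68 ± 0.72 and Slc25a30 at -0.27 ± 0.45 by the authors' deposited table. Slc25a31, with a mean log2 expression of 0.03, was at 0.85 ± 1.30 by the authors' deposited table. Slc25a13, which was below 0 in white fat too, had the lowest value of the family, -1.54 ± 1.10 (adjusted p = 0.860), by the authors' deposited table.

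The difference between depots did not pass for any single member. The white fat interaction minus the brown fat interaction was above 0 for 32 of the 41 shared genes (78.0%), beside 58.4% of the 14502 genes in both tables. At an adjusted p under 0.05, 0 of 41 passed, where 0.248% of all shared genes were called. An unadjusted p under 0.05 was reached by 6, all above 0, beside 15.7% of all genes in either direction and 9.73% above 0. Slc25a39 differed by 1.35 ± 0.43 (95% interval 0.43 to 2.27, adjusted p = 0.158 by the Welch-Satterthwaite test of both deposited interactions). Slc25a17 differed by 1.14 ± 0.47 (adjusted p = 0.247) and Slc25a20 by 1.65 ± 0.68 (0.259) by the same test. Slc25a16 (1.09 ± 0.49, adjusted p = 0.263) and Slc25a51 (0.97 ± 0.43, adjusted p = 0.289) also reached that limit. The test takes the tables as independent. A correlation of 0.5 between them was an alternative added after the data were seen. With it Slc25a39, Slc25a16 and Slc25a17 passed at adjusted p of 0.0220, 0.0306 and 0.0420 by the same test. That is 3 of the 41 members beside 2001 of the 14502 shared genes, a lower share than over all genes. Whether the tables share animals was not given in the sources used here. Across 12409 shared protein-coding genes the white and brown fat interactions had a Pearson r of 0.06 and a Spearman rho of 0.10. Across the 41 members these were 0.31 and 0.26. The correlation of the errors was not tested.

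Members that ranked higher in brown fat than in white fat tended to lie above 0 in white fat. Each gene was placed as a percentile of mean log2 expression among the protein-coding genes of its own table. The normalisation behind the log2 values is not given, so levels were not compared directly. The percentile in white fat was then taken from that in brown fat. Of 25 members with a higher percentile in brown fat, 23 were above 0 in the white fat interaction, with a median of 1.20. Of the other 16 members, 4 were above 0, with a median of -0.44. Among all shared protein-coding genes the same division gave 81.4% above 0 (median 0.61) and 46.2% above 0 (median -0.07). Across the 41 members the shift and the white fat interaction had a Pearson r of 0.80 and a Spearman rho of 0.82. Across 12409 protein-coding genes these were 0.48 and 0.49. The white fat percentile and the white fat interaction come from the same libraries, so the points share them, and genes are not replicates. The largest upward shifts were those of Slc25a48 (from percentile 15.1 to 78.7), Slc25a34 (6.31 to 54.9), Slc25a42 (28.0 to 73.5), Slc25a33 (30.5 to 66.4) and Slc25a35 (49.5 to 80.3). The first 4 of these were the ones with wide errors in white fat. The largest downward shift was that of Slc25a10, from percentile 78.5 to 24.2, whose interaction in white fat was near 0. Slc25a24 followed (73.0 to 42.3), then Slc25a13 (37.5 to 10.4). Slc25a45, Slc25a40 and Slc25a12, the lowest values in white fat, each had a lower percentile in brown fat.

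**Figure D4:**
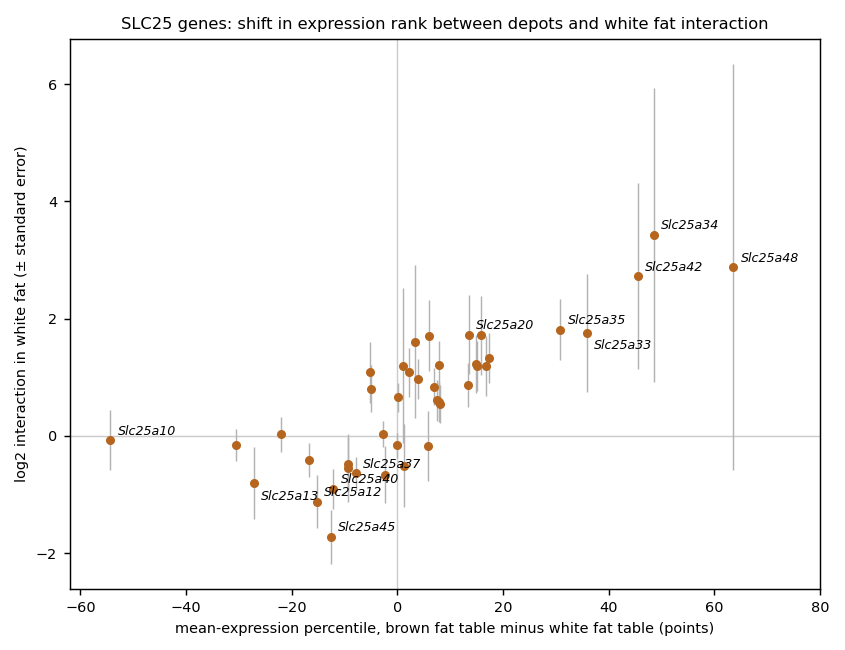
The horizontal axis is the change in mean-expression percentile from the white to the brown fat table, in percentile points, and the vertical axis the white fat log2 interaction with its standard error as the bar. Each point is 1 of the 41 SLC25 genes in both tables. Points right of 0 are mostly above 0 (23 of 25) and points left of it mostly below (12 of 16).

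Relatives of the family with other symbols were set beside it. Mtch1 and Mtch2, outer membrane proteins of the SLC25 fold, were at 0.65 ± 0.24 (adjusted p = 0.121) and 1.05 ± 0.34 (adjusted p = 0.0837) by the authors' deposited table for white fat. Ucp3, the uncoupling protein of muscle and brown fat, was at 2.21 ± 0.81 (adjusted p = 0.117) by the authors' deposited table. Ucp2, the widely expressed form abundant in immune cells, was at -0.81 ± 0.33 (adjusted p = 0.157) by the authors' deposited table. In brown fat these 5 genes, Ucp1 included, were all above 0, with a median of 0.14, and 0 of 5 had an unadjusted p under 0.05. Beside this, 51.7% of protein-coding genes were above 0 there and 6.51% of all genes had such a p. Of the 5, the smallest p in brown fat were those of Ucp2, at 1.05 ± 0.56, and Mtch2, at 0.14 ± 0.10, by the authors' deposited table.

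Other routes across the mitochondrial membranes were counted in the same way. Of 24 measured genes of that list, 20 were above 0 in white fat with a median of 0.63, and 11 had an unadjusted p under 0.05, all above 0. The background is the same, 57.3% of protein-coding genes above 0 and, of all genes, 24.5% at that p, 11.9% above 0. The gene past the adjusted p was Mpc2, a subunit of the pyruvate carrier, at 1.39 ± 0.35 (adjusted p = 0.0434) by the authors' deposited table. Its partner Mpc1 was at 2.03 ± 0.66 (adjusted p = 0.0861) by the authors' deposited table. Cpt2, which remakes acyl-CoA from what Slc25a20 delivers, was at 1.77 ± 0.62 (adjusted p = 0.102) by the authors' deposited table. Cpt1a, which makes acylcarnitines at the outer membrane, was at -0.08 ± 0.27 (adjusted p = 0.883) by the authors' deposited table. Tmem65, linked to sodium-calcium exchange, was at 1.20 ± 0.36 (adjusted p = 0.0660) by the authors' deposited table. In brown fat 17 of the 24 were above 0 (median 0.21), 3 had an unadjusted p under 0.05 and 0 passed the adjusted p in limma. The background there is 51.7% of protein-coding genes above 0 and 6.51% of all genes at that unadjusted p. Tmem65, at 0.48 ± 0.18, and the transporter Abcb10, at 0.97 ± 0.38, had the smallest p of the list in brown fat by the authors' deposited table.

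Enzymes around the carriers were set beside them by pathway. The background in white fat is 57.3% of protein-coding genes above 0 and 24.5% of all genes at an unadjusted p under 0.05. In brown fat these shares are 51.7% and 6.51%. Of the 6 enzymes of the malate-aspartate and glycerol phosphate shuttles, 5 were above 0 in white fat (median 0.98) and 0 passed the adjusted p in limma, with 2 at an unadjusted p under 0.05. Gpd1, the cytosolic enzyme of the glycerol phosphate shuttle, was at 1.41 ± 0.53 (adjusted p = 0.125) by the authors' deposited table, and Mdh2, the mitochondrial malate dehydrogenase, at 0.95 ± 0.41 (adjusted p = 0.175). In brown fat 5 of the 6 were above 0 (median 0.26), 0 passed the adjusted p in limma, and 3 had an unadjusted p under 0.05, 2 above 0 and 1 below. The one below was Got1, the cytosolic aspartate aminotransferase, at -0.84 ± 0.30 (adjusted p = 0.624) by the authors' deposited table. Gpd1 was there at 0.48 ± 0.13 (adjusted p = 0.343) by the authors' deposited table. Its mitochondrial partner Gpd2 was there at 0.47 ± 0.10 (adjusted p = 0.131) by the authors' deposited table. All 5 enzymes that use exported citrate were above 0 in both depots, with medians of 0.79 in white and 1.05 in brown fat. In white fat Fasn, the fatty acid synthase, was at 1.45 ± 0.49 (adjusted p = 0.0918) by the authors' deposited table. Acaca, the acetyl-CoA carboxylase before it, was at 1.13 ± 0.59 there and at 1.05 ± 0.37 (adjusted p = 0.624) in brown fat. In brown fat 3 of these had an unadjusted p under 0.05, among them Acly, the ATP citrate lyase, at 1.30 ± 0.43 (adjusted p = 0.622) by the authors' deposited table. Of the 10 genes that import carrier proteins through the TOM and TIM22 complexes, 8 were above 0 in white fat (median 0.44), 1 had an unadjusted p under 0.05 (Timm29, 0.86 ± 0.39 by the authors' deposited table, followed by Timm10, 1.58 ± 0.80) and 0 passed the adjusted p in limma. In brown fat 5 of the 10 were above 0, with Tomm70a at 0.57 ± 0.19 and Tomm40 at -0.67 ± 0.33 by the authors' deposited table.

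Markers of other cells moved in the same white fat table, in which the white fat values above were measured. The background there is 57.3% of protein-coding genes above 0. Of all genes, 4.75% passed the adjusted p and 24.5% had an unadjusted p under 0.05. All 7 T cell markers lay below 0 and passed (median -8.17, range -9.15 to -5.16), and all 6 B cell markers lay below 0 (median -8.51, range -11.07 to -5.22), 3 of them past the adjusted p in limma. Their mean log2 expression reached 3.39 for T cells and 3.92 for B cells, and the lowest was 0.46 and -0.62. All 7 thermogenic adipocyte markers were above 0 (median 3.20, range 2.31 to 4.47), of which Kcnk3, a potassium channel, passed at 3.20 ± 0.81 (adjusted p = 0.0438) by the authors' deposited table. Ucp1, the defining gene of that list, had 3.29 ± 5.70 (adjusted p = 0.749) by the authors' deposited table, an error wider than that of any SLC25 gene with the symbol. All 6 skeletal muscle markers were above 0 (median 3.74), and 0 of 6 passed in limma while 2 had an unadjusted p under 0.05. The 7 adipocyte markers were above 0 with a median of 0.35, and 1 had an unadjusted p under 0.05. These include Adipoq and Fabp4, defining genes of the adipocyte, at mean log2 expressions of 11.12 and 12.49. Macrophage markers had a median of -0.10 (2 of 5 above 0) and endothelial markers 0.48 (3 of 4 above 0). Mammary epithelial markers were above 0 in 4 of 4 genes (median 1.64, 0 at an unadjusted p under 0.05). The part of these markers in the SLC25 values was not tested. In the brown fat table the thermogenic markers had a median of 0.09 (4 of 7 above 0) and the skeletal muscle markers one of -3.15 (1 of 6 above 0, 2 at an unadjusted p under 0.05, both below). Adipocyte markers there were above 0 in 6 of 7 genes (median 0.28), with 3 at an unadjusted p under 0.05, all above 0. Macrophage markers had a median of -0.68 (2 of 5 above 0), with 2 at that limit, both below 0, and endothelial markers one of -0.27 (1 of 4 above 0), with 1 at that limit, below 0. None of the markers in brown fat passed the adjusted p in limma. The background in brown fat is 51.7% of protein-coding genes above 0 and 6.51% of all genes at an unadjusted p under 0.05.

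**Figure D5:**
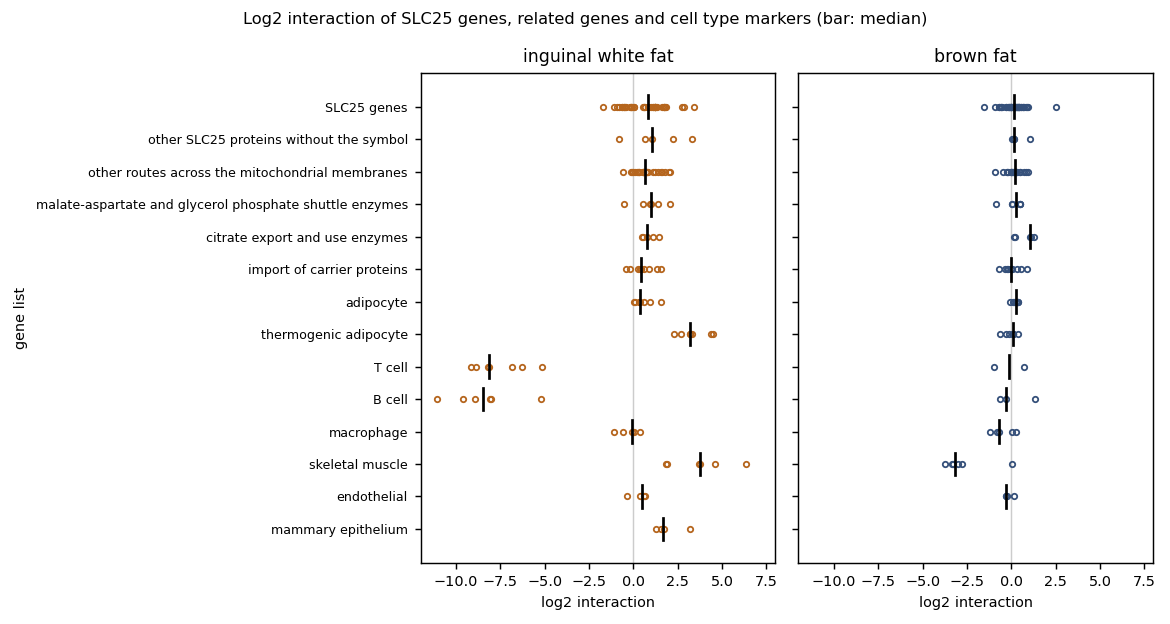
Each open point is the log2 interaction (horizontal axis) of 1 gene in white fat (left) or brown fat (right), and rows are SLC25 genes, related lists and cell type markers, with a bar at each list's median. In white fat the T and B cell rows lie at medians of -8.17 and -8.51 and the thermogenic row at 3.20, beside 0.80 for the SLC25 genes. In brown fat the SLC25 median is 0.18.

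RefSeq promoter windows were matched by symbol for 32 of the 42 genes, as 41 windows, since some genes have several starts. No window was used for the other 10 genes. The 250 bases before the start were searched on both strands for 6 motifs, none of which contains another. The GC box GGGCGG was in 32 of the 41 windows (78.0%), beside 32.7% of all 32851 windows. For every motif this background covers 27025 genes and was not limited to genes measured here or matched for GC content. A higher share is therefore not read as particular to the family. The CCAAT box was in 20 (48.8%, beside 33.8%) and the E-box CACGTG in 8 (19.5%, beside 6.02%). The half-site TGCGCA of NRF1, a regulator of mitochondrial genes, was in 3 (7.32%, beside 6.43%). The cyclic AMP response half-site TGACGT was in 4 (9.76%, beside 6.47%). The extended half-site AAGGTCA of the oestrogen-related receptors was in 1, that of Slc25a34 (2.44%, beside 4.08%). Median GC content was 58.0% over the SLC25 windows and 52.4% over all. In the printed sequences, Slc25a45 holds 1 GC box, Slc25a17 1 GC box and 1 CCAAT box, Slc25a39 3 GC boxes and Slc25a40 2. Genes above and below 0 in white fat both held a GC box in these sequences, and a match describes letters in a window only.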

How the data were processed

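RNA from inguinal white fat was sequenced in 12 libraries, which the titles place in 4 groups of 3. Purification used a Zymo kit, per the labels' protocols. The submitters' processing notes name featureCounts, limma and the build GRCm39, while versions, aligner, annotation and strand setting were not given in the sources used here. Per the file headers, each deposited comparison table holds the log2 interaction, the mean log2 expression, a moderated t-statistic (a score with no fixed range), a p-value and an adjusted p-value. The normalisation and offset behind the log2 values are not given.

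The 48 library columns, 12 in each of the 4 deposited tables, carry names that match no label and were not used. The planned fits of KO against WT within each sex were therefore not made, and depth is unknown. Standard errors were computed as the log2 interaction over t, and 95% intervals from the total degrees of freedom that t and p imply, 13.4 in white and 33.9 in brown fat. The deposited adjusted p was checked to equal a Benjamini-Hochberg adjustment over all genes of its table. For the depots, the brown fat interaction was subtracted from the white fat one, its error being the root of both squared errors added, and tested two-sided with Welch-Satterthwaite degrees of freedom, adjusted over all 14502 shared genes. On simulated data of 14502 genes for that comparison it recovered 99.5% of changes of 6 standard errors and 11.0% of those of 3. The depots were simulated as independent, so this recovery does not bear on a correlation between them.

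The members, gene lists and motifs were chosen with earlier results of these data known. Members are named where called at an adjusted p of 0.05, among the 12 smallest p, the 3 highest or the 3 lowest mean expressions of a table, or with the largest t of a role, and related genes where among the 2 smallest p of their list. Other members were added, 1 member enters the counts and is not reported here by its own values, and Mpc1, Cpt2, Cpt1a, Mtch1, Ucp1, Adipoq, Fabp4 and Kcnk3 fall outside the rule and were chosen after their values were seen. Role lists come from general knowledge of the family. The computations ran in Python 3.11.15 with scipy 1.17.1 for the tests, numpy 2.4.6, matplotlib 3.10.9 for plots, and pandas 2.3.3.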

Additional observations from a re-analysis of the deposited data

Results flagged for a closer look

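In white fat the KO effect on Slc25a45 differed between females and males, with a log2 interaction of -1.72 ± 0.45 and an adjusted p of 0.0478 from limma in the authors' deposited table. The value rests on the authors' fit over 12 libraries, and the direction in each library was not analysed here. No other SLC25 gene met this criterion, and groups of 3 libraries were not screened for single outlying samples.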

How the results depend on the processing

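Slc25a45 was called under every alternative run for the white fat table, with an adjusted p from 0.0357 to 0.0478. Those were a threshold of 0.10, protein-coding genes only, a floor on mean log2 expression at log2 of 10, and centring. The call at 0.10 was fixed by that at 0.05, and the subsets of genes changed only the adjustment. Centring was on the median of all genes and alone changed the value, to -1.85. The threshold of 0.10 moved the count of SLC25 genes called from 1 to 4, with 3 above 0 in place of 0 (Slc25a35, Slc25a17 and Slc25a39), and the count over all genes from 795 to 2027. Centring gave 25 SLC25 genes above the median of all genes in place of 27 above 0 in white fat, and 25 in place of 26 in brown fat. Under the expression filter 31 members remained in the white fat table, 21 of them above 0. In brown fat the filter kept 27 members, of which 16 were above 0 in place of 26, a count that falls because fewer members are left. The share of all genes above 0 under the filter is not given for either depot. These counts therefore have no background beside them. No SLC25 gene passed in brown fat under these alternatives. For the depot difference, 0 members passed in 4 of the 5 settings and 3 passed with a correlation of 0.5 between depots, an alternative added after the data were seen. The count of members at an unadjusted p under 0.05 moved from 6 to 14 there, with no share over all genes given for that setting. Over the 14502 shared genes the adjusted calls moved from 36 to 2001. Centring each table moved those calls from 36 to 58. The checks of single genes covered 19 members in white fat and 18 in brown fat. Direction and call were kept in 70 checks in white fat and 67 in brown fat, and the other 3 are those at the threshold of 0.10. Members outside these checks did change side on centring. Among them were Slc25a36 and Slc25a25 in white fat, both at 0.03, where the median of all genes was 0.13. No paired analysis was possible because the columns of library values carry no sample label, and for the same reason replicates could not be left out and the pseudocount of the planned fits was not varied. Depth is unknown, so errors are those of the deposited fit.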
